A study of Rattus norvegicus with 27 samples.

Results

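The step from day 4 to day 7 on plastic was followed in primary lung fibroblasts taken from the Sprague-Dawley rat, a widely used outbred strain. The libraries were chosen by their labels, 3 of Plastic day 7 (replicates 1, 3 and 4) and 4 of Plastic day 4 (replicates 1 to 4), so 7 of the 27 RNA-seq libraries of the series. All 7 came from lung cells sorted on magnetic beads for CD90 (the Thy-1 surface antigen), kept in MucilAir medium on plastic under a rat tail collagen I coat of 38 µg/ml; the headers of the count table mark each as wild type (WT) and as a monoculture, and no other agent is given. The remaining 20 libraries hold cells on coated PDMS, a silicone of 3 to 5 kPa, at days 2, 4, 7 and 14, and on plastic at day 14. Animal, age and culture of origin are not stated for any library. Replicate spread, and every p-value with it, may therefore be technical in part. Totals of the 7 libraries ran from 17.5 to 23.1 M counts.

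Lung fibroblasts make and remodel the collagen-rich matrix between the airspaces. Rigid culture plastic is known as a setting in which such cells spread, form stress fibres and can turn towards contractile, matrix-secreting myofibroblasts, and soft gels are used to hold them nearer to the stiffness of lung tissue. On plastic the libraries analysed are of days 4, 7 and 14, so the step described is the earlier of those between neighbouring days.

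The count table lists Ensembl rat gene IDs without names, and the RefSeq gene table of the GRCr8 assembly used here holds no Ensembl IDs, so 0 of the 32753 could be paired with a symbol. The 31 gene lists chosen for this tissue (contractile, matrix, inflammatory, cell cycle, leukocyte and other markers) are written as symbols and could not be looked up. The fibroblast label was therefore not checked against marker genes, and the genes below are described by ID and level.

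No gene passed the threshold between Plastic day 7 and Plastic day 4. Of 14258 genes tested, 0 had a Benjamini-Hochberg adjusted p under 0.05 in edgeR's quasi-likelihood test (background 0%; n = 3 and 4), and the smallest adjusted p was 0.0883. At an unadjusted p under 0.05 there were 2665 genes (18.7% of those tested), 1098 of them at higher levels at day 7 (7.7%) and 1567 at lower levels (11%). DESeq2 called 388 genes on the same counts (2.72%), 212 higher (1.49%) and 176 lower (1.23%) at day 7, with median log2 fold changes of 1.01 and -1.86, and limma-voom called 2, both higher. Scaling by library size alone in place of TMM left 0 calls. It shifted the median log2 fold change of all genes from -0.04 to -0.15. The share of the unadjusted genes that were higher at day 7 went from 41.2% to 23.4%. By the unadjusted p, DESeq2 had 1318 higher and 1608 lower. The majority turned in limma-voom, with 1241 higher and 1101 lower. It also turned in edgeR without Plastic day 4 replicate 3, with 2014 higher and 1680 lower. No majority direction is therefore given.

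The count of calls rested on a single day 4 library. Without Plastic day 4 replicate 3, edgeR called 528 of 14222 genes (3.71%), 362 higher (2.55%) and 166 lower (1.17%) at day 7, while leaving out any other of the 7 libraries gave 0. With library size alone in place of TMM the majority turned, to 281 higher and 612 lower among 893 calls. DESeq2 called 1694 and limma-voom 509 without that library. The day 4 libraries then left were replicates 1, 2 and 4, of which 1 and 2 were closely alike, as described below. The day 4 spread in these fits may thus be too small. No fit summed replicates 1 and 2 with replicate 3 left out. Of the 388 genes that DESeq2 called in all libraries, 214 were also among these 528 in the same direction, which is 55.2% of the DESeq2 list and 40.5% of the other. The unadjusted count also depended on single libraries, at 1700 when Plastic day 4 replicate 1 was left out and 1692 when its replicate 2 was. Leaving out replicate 1 or replicate 3 of Plastic day 7 gave 1711 and 1728.

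**Figure D1:**
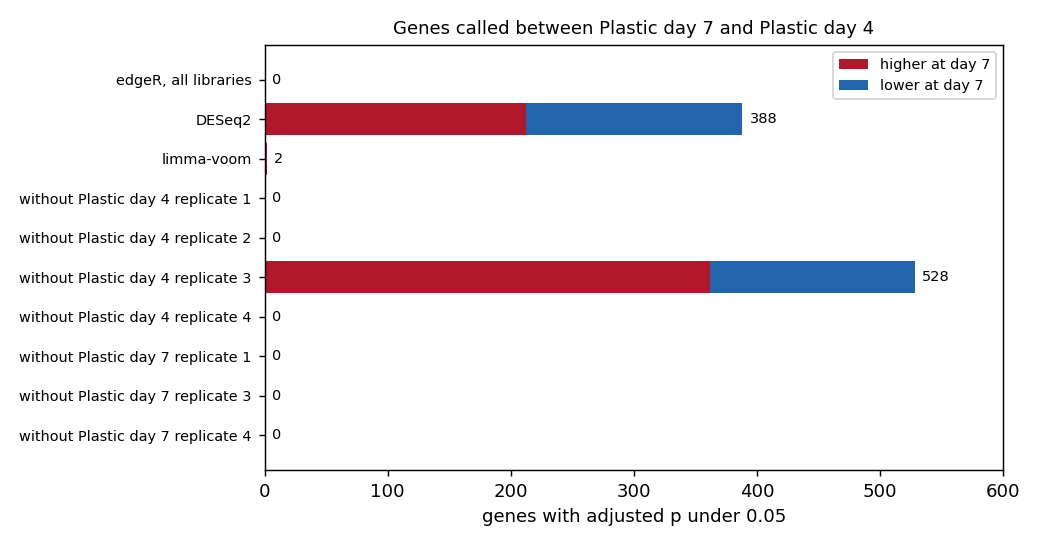
Number of genes with an adjusted p under 0.05 between Plastic day 7 and Plastic day 4 (x axis) for edgeR, DESeq2 and limma-voom on all libraries and for edgeR without each of the 7 libraries in turn; bars are split into genes higher and lower at day 7. The long bars are DESeq2 with 388 genes and edgeR without Plastic day 4 replicate 3 with 528.

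The naming rule asked for an adjusted p under 0.05 and so took no gene. In its place 4 IDs are given, chosen after their values were seen. They are the 2 higher and the 2 lower at day 7 with the smallest p among the 1514 genes (602 higher and 912 lower) whose libraries did not overlap and whose mean reached 5 CPM in the higher group. Over all genes, the groups did not overlap in 1922 (13.5%), 782 with every day 7 library above every day 4 library (5.48%) and 1140 with every one below (8%). Levels are in CPM, a gene's count per M (mega) counts after TMM scaling of the library size. In bulk RNA, fewer cells of a type and less RNA per cell cannot be told apart.

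ENSRNOG00000049385 had the smallest p of all genes. It stood at 29.2, 25.6, 76.5 and 41.3 CPM in Plastic day 4 replicates 1 to 4 and at 168.5, 160.9 and 121.7 CPM in Plastic day 7 replicates 1, 3 and 4. The groups did not overlap, and the highest day 4 library was replicate 3. The means were 43.2 ± 23.2 CPM (SD, n = 4) and 150.4 ± 25.1 CPM (n = 3). Day 7 was 3.48-fold higher, or 1.80 ± 0.31 on the log2 scale (SE; edgeR adjusted p = 0.0883). Without Plastic day 4 replicate 3 the log2 fold change was 2.26 (edgeR adjusted p = 0.000668).

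ENSRNOG00000026163 stood at 7.51, 6.98, 12.1 and 13.0 CPM in Plastic day 4 replicates 1 to 4. In Plastic day 7 replicates 1, 3 and 4 it stood at 30.2, 28.0 and 19.6 CPM, all above day 4. Replicates 1 and 2 were the lowest day 4 libraries for both of these IDs. The means were 9.90 ± 3.09 CPM (SD, n = 4) and 25.9 ± 5.55 CPM (n = 3), so day 7 was higher by 1.39 ± 0.25 in log2 (SE; edgeR adjusted p = 0.0900; 0.0183 without Plastic day 4 replicate 3).

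ENSRNOG00000048932 was at lower levels at day 7. Plastic day 4 replicates 1 to 4 held 12.2, 11.2, 11.1 and 5.6 CPM, and Plastic day 7 replicates 1, 3 and 4 held 2.18, 1.96 and 1.67 CPM. Replicate 4 lay apart from the other day 4 libraries, on the side of day 7. The means were 10.0 ± 2.99 CPM (SD, n = 4) and 1.93 ± 0.26 CPM (n = 3), and the log2 fold change was -2.37 ± 0.46 (SE; edgeR adjusted p = 0.0900; 0.0268 without Plastic day 4 replicate 3).

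ENSRNOG00000054437 was also at lower levels at day 7. It held 7.38, 8.73, 8.07 and 7.54 CPM at day 4 and 4.03, 3.13 and 4.54 CPM at day 7, in the same order of replicates. The groups did not overlap, and the 4 day 4 libraries lay close together. The means were 7.93 ± 0.61 CPM (SD, n = 4) and 3.90 ± 0.71 CPM (n = 3), and the log2 fold change was -1.02 ± 0.21 (SE; edgeR adjusted p = 0.0900; 0.0284 without Plastic day 4 replicate 3). DESeq2 called all 4 IDs in the same directions (largest adjusted p = 0.00196), and limma-voom called ENSRNOG00000049385 and ENSRNOG00000026163.

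**Figure D2:**
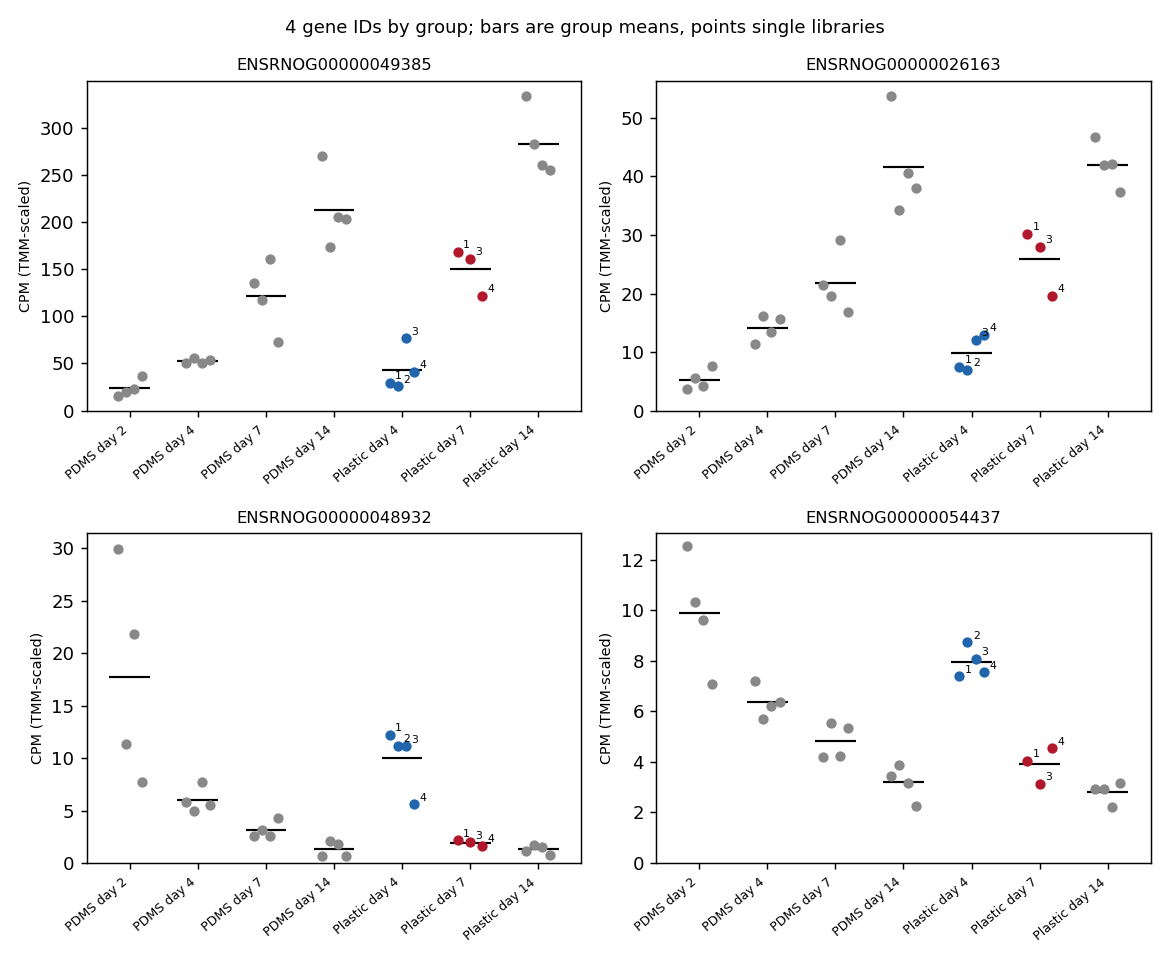
Level of each of the 4 IDs (y axis, CPM) in every library of the 7 groups (x axis); points are libraries, bars group means, and numbers mark the replicates of Plastic day 4 (blue) and Plastic day 7 (red). The day 7 points lie above the day 4 points in the upper panels and below them in the lower panels, and Plastic day 14 lies further in the same direction by its mean.

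In the groups outside this step, the mean levels of these IDs were also ordered by day. ENSRNOG00000049385 averaged 23.9 ± 8.92 CPM at PDMS day 2, 52.6 ± 2.94 at PDMS day 4, 121.6 ± 36.8 at PDMS day 7 and 212.8 ± 40.8 at PDMS day 14 (SD, n = 4 each), and 283.0 ± 35.7 at Plastic day 14 (n = 4). ENSRNOG00000048932 averaged 17.7 ± 10.1 CPM at PDMS day 2, 6.0 ± 1.19 at PDMS day 4, 3.16 ± 0.83 at PDMS day 7 and 1.29 ± 0.76 at PDMS day 14, and 1.29 ± 0.39 at Plastic day 14 (n = 4 each). The first is thus ordered upward and the second downward by day in the means of both substrates. From day 7 to day 14 on plastic, a step that shares the day 7 libraries and in which 0.0842% of genes were called, the log2 difference was 0.91 ± 0.31 for ENSRNOG00000049385 (SE; edgeR adjusted p = 0.19). It was -0.58 ± 0.44 for ENSRNOG00000048932 (SE; edgeR adjusted p = 0.586).

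Among the 2665 genes at an unadjusted p under 0.05, fold sizes varied widely. For the 1098 higher at day 7 the median difference was 0.70 in log2, and 368 of them differed over 2-fold, 107 over 4-fold and 451 under 1.5-fold. The 1567 lower at day 7 had a median of -0.74, with 670 over 2-fold, 422 over 4-fold and 659 under 1.5-fold. The median over all genes tested was -0.04. Choosing genes by p on these libraries pushes the medians of both sets away from 0.

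Precision was poorest for scarce genes. The median SE of the log2 fold change was 0.75 for the 1866 genes with a mean under 1 CPM in the 7 libraries, 0.47 for 1924 genes from 1 to 5 CPM, 0.26 for 3074 genes from 5 to 20 CPM, 0.18 for 5207 genes from 20 to 100 CPM and 0.19 for 2187 genes over 100 CPM. In the most abundant class, 10.7% of genes were higher and 7.68% lower at day 7 by the unadjusted p, and in the class from 20 to 100 CPM 7.26% were higher and 12% lower. With library size in place of TMM the order in the most abundant class flipped, to 6.81% higher and 13.7% lower, so no direction is given for it.

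Few of the 14258 genes tested crossed a low level between the days in every library. Asking this of all 7 libraries by itself keeps the count low. At a limit of 1 CPM, 16 genes lay under it in all 4 day 4 libraries and reached it in all 3 at day 7, 20 did the reverse, and 11176 reached it in all 7. Of the 100 most abundant genes by mean CPM at day 4, 81 were also among the 100 most abundant at day 7.

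Most of the variance among the 7 libraries lay within days. Day took 26.9% of the variance of log2 CPM over the 7 libraries, and 43.7% without Plastic day 4 replicate 3. These are shares of summed squares, with no allowance for the number of libraries within a day. A split of the libraries by chance also takes a share, so they do not measure the day difference against the replicate spread. The first principal component of the 7 libraries, with 54.4% of the variance, ran from Plastic day 4 replicates 1 and 2, at scores of -74.0 and -78.3, to Plastic day 4 replicate 3 at 88.1, with day 7 libraries at -22.3, 4.42 and 71.8 between them. The second component, with 25.4%, set the days apart, with day 4 libraries at 25.9 to 54.9 and day 7 libraries at -55.3 to -27.3. Within Plastic day 4 (n = 4), 5030 genes had a range over 2-fold, against 3994 within Plastic day 7 (n = 3). A range grows with the number of libraries. The median SD of log2 CPM was 0.31 at Plastic day 4 and 0.29 at Plastic day 7. Without Plastic day 4 replicate 3, the day 4 count was 3014 and the median SD 0.22. The libraries then left include replicates 1 and 2, which were closely alike, as described below.

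Plastic day 4 replicates 1 and 2 were closely alike, with a Pearson r of 0.994 across genes and a chi-square of 7.76 per degree of freedom between their counts. The other 20 pairs of the 7 libraries had 85.5 to 394.9 per degree of freedom. The alike pair still differed by more than sampling noise, where a value near 1 is due, and was kept as separate libraries. With both summed to 1 library, edgeR called 0 genes and 1687 had an unadjusted p under 0.05. Of all 27 libraries, Plastic day 4 replicate 3 was closest to PDMS day 4 replicate 4 (r = 0.974) and replicate 4 to the same PDMS library (r = 0.983). Among the 7 libraries, Plastic day 4 replicate 3 was closest to Plastic day 7 replicate 3 (r = 0.960), against 0.881 to 0.955 within day 4. Plastic day 4 replicate 4 was closest to Plastic day 7 replicate 1 (r = 0.960), against 0.954 to 0.955 within day 4. Plastic day 7 replicate 3 was there closest to Plastic day 7 replicate 1 (r = 0.963). Plastic day 7 replicate 3 was closest to PDMS day 14 replicate 2 (r = 0.973), while Plastic day 7 replicates 1 and 4 were closest to each other (r = 0.967).

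The 528 genes called without Plastic day 4 replicate 3 were also followed in that library. They were chosen by the gap between the other day 4 libraries and day 7. That choice widens the gap and can by itself move the unused replicate 3 towards day 7. How far it did so was not tested, so the values below do not show that replicate 3 resembled day 7. On the second principal component, which set the days apart, replicate 3 stood at 54.9, on the day 4 side. Across all genes tested, its closest library among the 7 was Plastic day 7 replicate 3 (r = 0.960). The 362 higher at day 7 averaged 3.70 log2 CPM in Plastic day 4 replicates 1, 2 and 4, 4.90 in replicate 3 and 5.11 in the day 7 libraries. The 166 lower at day 7 averaged 4.57, 3.15 and 3.06. Replicate 3 lay on the day 7 side of the midpoint in 288 of the 362 and 132 of the 166. With all libraries the median log2 fold change of the 362 was 0.83 in place of 1.24, and that of the 166 was -0.99 in place of -1.16.

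Libraries outside the day means of this comparison, though in the same fit, gave a ruler for its course. On PDMS from day 4 to day 14, 28.6% of genes tested were called, 1906 that rose (13.4%) and 2169 that fell (15.2%; edgeR adjusted p under 0.05, n = 4 and 4). In the plastic step the median log2 fold change was 0.30 in the 1906 and -0.51 in the 2169, against -0.04 over all genes. Of the 1906, 502 were higher and 16 lower by the unadjusted p (26.3% and 0.839%, against 7.7% and 11% of all genes). Of the 2169, 7 were higher and 808 lower (0.323% and 37.3%). Without Plastic day 7 replicate 3 the median of the 1906 was 0.16, and in a fit of the 6 libraries with shared replicate numbers, with the number as a block, that of the 2169 was -0.34.

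Placed on this ruler, as the mean log2 CPM of the PDMS risers minus that of the fallers, Plastic day 4 replicates 1 to 4 stood at -0.42, -0.45, 0.67 and 0.13. Plastic day 7 replicates 1, 3 and 4 stood at 1.16, 1.63 and 0.60. The groups overlapped, since Plastic day 4 replicate 3 lay above Plastic day 7 replicate 4. The Plastic day 14 libraries ran from 2.09 to 2.66, above every day 7 library.

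**Figure D3:**
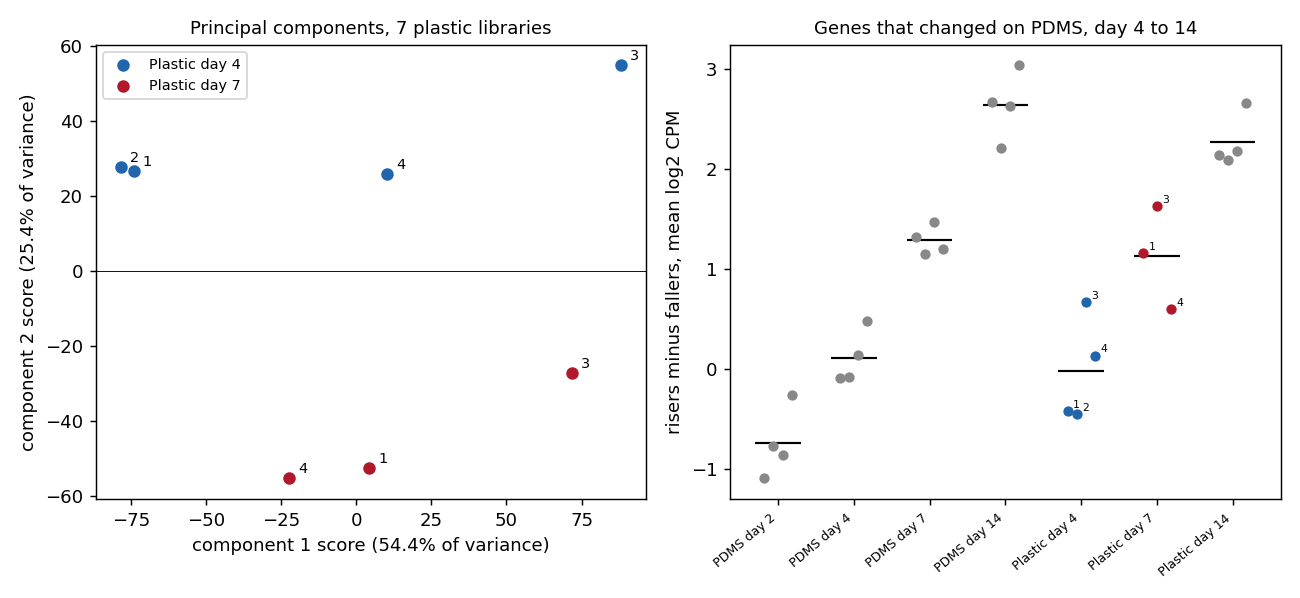
Left, scores of the 7 libraries on the first (x axis) and second (y axis) principal component of log2 CPM; right, mean log2 CPM of genes that rose on PDMS from day 4 to day 14 minus that of genes that fell (y axis) in every library by group (x axis), with bars at group means. Numbers mark replicates; Plastic day 4 replicate 3 lies at 88.1 on the first component and at 0.67 on the right, above Plastic day 7 replicate 4 at 0.60.

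The same step on PDMS was set beside it. No library is in the day means of both steps, but all 27 libraries shared 1 estimate of each gene's spread, so the PDMS libraries had a part in the p-values on plastic and thus in which genes passed. With the 7 plastic libraries alone, 1746 genes in place of 2665 had an unadjusted p under 0.05. From day 4 to day 7 on PDMS, 21 genes fell (0.147%) and 0 rose (edgeR adjusted p under 0.05, n = 4 and 4). On plastic, 20 of the 21 had a negative log2 fold change, 15 were lower by the unadjusted p (71.4%, against 11% of all genes) and 12 had no overlap between the days (against 8%). Their median was -1.69 on plastic and -3.76 on PDMS, where choosing them by their fall enlarges the second value. These were scarce transcripts, with a median over the 21 of 0.74 CPM in the 7 plastic libraries.

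Of the 2665 plastic genes, 88.5% had the same sign in the PDMS step, against 70.2% of all genes. On PDMS the median log2 difference was 0.28 for the 1098 and -0.28 for the 1567. The PDMS step by itself had 12% of genes at an unadjusted p under 0.05, 3.68% higher and 8.3% lower at day 7. The plastic step had 18.7%. Of the 14258 genes tested, 694 were past that limit on both substrates with the same sign and 8 with opposite signs. Both p-values of a gene use the same spread estimate, so passing on plastic and passing on PDMS are not independent. Across the 14258 genes, which are not independent replicates and share the scaling and error estimate of 1 fit, Pearson's r between the steps was 0.64 and Spearman's rho 0.56.

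**Figure D4:**
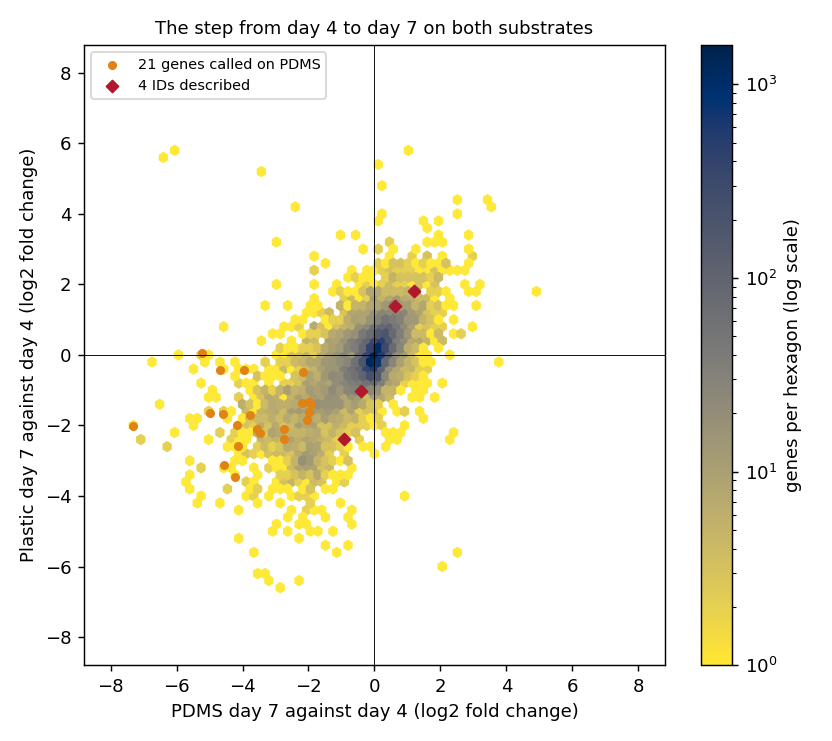
Log2 fold change from day 4 to day 7 on PDMS (x axis) and on plastic (y axis) for the 14258 genes, shaded by genes per hexagon on a log scale; circles are the 21 genes called on PDMS and diamonds the 4 IDs described. The genes spread along the diagonal (Pearson r of 0.64), and 20 of the 21 circles lie below 0 on plastic.

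The same sets were followed library by library. The 1098 averaged 3.53, 3.52, 4.09 and 3.96 log2 CPM in Plastic day 4 replicates 1 to 4 and 4.72, 4.79 and 4.50 in Plastic day 7 replicates 1, 3 and 4. The PDMS libraries took part in choosing these sets through the shared spread, though not through their means. There the 1098 ran from 3.88 to 4.11 at day 4 and from 4.18 to 4.63 at day 7, with no overlap. The 1567 averaged 4.15, 4.16, 3.99 and 3.91 at Plastic day 4 and 2.94, 2.98 and 2.96 at Plastic day 7. On PDMS they ran from 3.73 to 4.02 at day 4 and from 2.95 to 3.24 at day 7, again with no overlap.

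**Figure D5:**
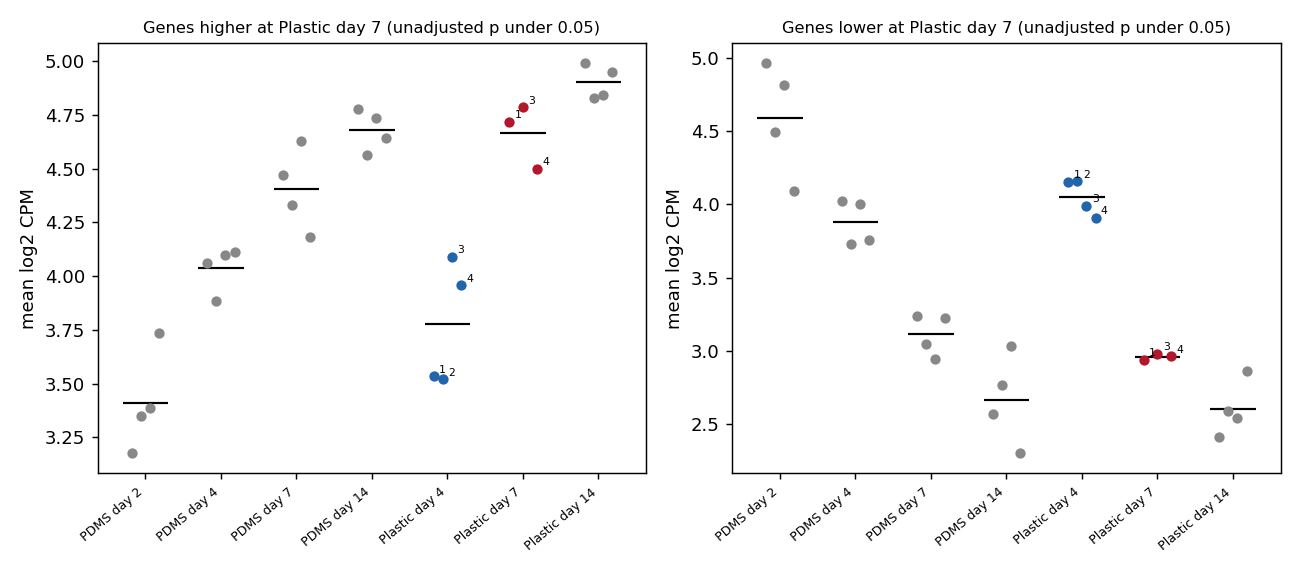
Mean log2 CPM (y axis) of the 1098 genes higher (left) and the 1567 genes lower (right) at Plastic day 7 by the unadjusted p, in every library by group (x axis); bars are group means. The plastic gap between days 4 and 7 is fixed by the choice of genes; the PDMS libraries, which entered that choice through the shared spread only, run from 3.88 to 4.11 at day 4 and 4.18 to 4.63 at day 7 on the left.

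No gene's step was shown to differ between the substrates. The test of the plastic step minus the PDMS step called 0 of 14258 genes (0%), the smallest adjusted p in edgeR being 0.733. DESeq2 and limma-voom also called 0. Unadjusted p-values under 0.05 were found for 419 genes (2.94%). That count was 960 when Plastic day 4 replicate 3 was left out, and 740 for Plastic day 7 replicate 4. Among the PDMS libraries it was 800 when day 4 replicate 2 was left out and 636 when day 7 replicate 3 was, and the last of these gave 1 call. For the 4 IDs, which were chosen on the plastic step, the plastic minus PDMS difference in log2 fold change was 0.59 ± 0.42 (SE) for ENSRNOG00000049385 and 0.77 ± 0.34 for ENSRNOG00000026163. It was -1.44 ± 0.58 for ENSRNOG00000048932 and -0.62 ± 0.27 for ENSRNOG00000054437 (edgeR adjusted p = 0.994 for all 4).

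Day 7 was also set against the midpoint of days 4 and 14 on plastic, to ask whether any gene lay off the middle of that course. A gene that only rises or only falls can also lie off the midpoint, so the test does not single out peaks or dips. The count was 0 (0%) in edgeR, with a smallest adjusted p of 0.999, and 0 by both other tools. In all, 521 genes (3.65%) lay under an unadjusted p of 0.05, and 326 when Plastic day 7 replicate 1 was left out. The departure from the midpoint was 0.44 ± 0.27 (SE) on the log2 scale for ENSRNOG00000049385 and -0.89 ± 0.40 for ENSRNOG00000048932 (edgeR adjusted p = 0.999 for both).

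Reads lay in fewer genes at day 7 by the means, but the difference did not pass the test. An effective number of genes was computed per library as e raised to the Shannon entropy of its gene shares. It was 3959, 3856, 3537 and 3306 in Plastic day 4 replicates 1 to 4 and 2617, 3261 and 3400 in Plastic day 7 replicates 1, 3 and 4. The groups overlapped, with Plastic day 7 replicate 4 above Plastic day 4 replicate 4. The means were 3664 ± 299 (SD, n = 4) and 3093 ± 418 (n = 3), a difference of -572 (two-sided exact permutation p = 0.0857, 0.171 after Benjamini-Hochberg adjustment over 2 tests; the smallest p that 35 splits can give is 0.0286). Without Plastic day 7 replicate 1 it was -334. The top 10 genes took 7.05% ± 1.26 of counts at day 4 (n = 4) and 9.0% ± 1.97 at day 7 (n = 3; two-sided exact permutation p = 0.171, adjusted 0.171), and Plastic day 7 replicate 1 was the highest library at 11.3%.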

How the data were processed

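RNA-seq of 27 libraries was deposited by the authors as a table of raw, whole-number counts with Ensembl rat IDs as rows; 1 of its 28 columns matches none of the listed samples and was set aside, and no row lacked an ID. The series design text and the submitters' processing notes name FastQC 0.11.2, bamUtil 1.0.11, dupRadar 1.4, STAR, Cufflinks 2.2.1 and DESeq2. Build, annotation, strand setting and the program behind the counts: not given in the sources used here. Overlapping, antisense or near-identical genes may share or split reads. In R 4.3.3, edgeR 4.0.16 (filterByExpr with a minimum count of 10, a total of 15 and a smallest group of 3; TMM) retained 14258 genes and over 99.9% of each library's counts. All 27 libraries entered 1 quasi-likelihood fit of group means (20 residual degrees of freedom), so groups share 1 estimate of the spread. Tests were two-sided, and Benjamini-Hochberg adjustment ran over all genes with a threshold of 0.05, except in DESeq2. There, 559 genes had no adjusted p in the plastic step with all libraries, so its adjustment ran over fewer genes. The share of genes that DESeq2 called is still of all 14258. Each SE is the absolute log2 fold change divided by the root of the F statistic; log2 CPM uses a prior count of 2. Alternatives were DESeq2 1.42.0, limma-voom (limma 3.58.1), other scalings and filters, the replicate block and leaving out each library. The code was tested on simulated data. Libraries, lists and tests were chosen with earlier results of these data known. The naming rule (adjusted p under 0.05, no overlap, at least 5 CPM, largest differences, plus list members) took no gene, and no gene list was tested. Totals of 17.5 to 23.1 M counts in the 7 libraries limit the precision of scarce genes.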

Additional observations from a re-analysis of the deposited data

Results flagged for a closer look

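ENSRNOG00000048932 stood at 5.6 CPM in Plastic day 4 replicate 4, apart from 11.1 to 12.2 CPM in the other day 4 libraries. Of 8 measures tested in the group of 4 this 1 gave a mark, and chance marks about 1 group in 20. Plastic day 7, with 3 libraries, was not tested in this way.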

How the results depend on the processing

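The count of 0 genes between Plastic day 7 and Plastic day 4 held with RLE size factors, library size only, no filter, a filter of at least 5 CPM and a fit of the 7 libraries alone. DESeq2 gave 388 and limma-voom 2. Leaving out 1 of the 7 libraries gave 0 to 528 genes. The 2665 genes at an unadjusted p under 0.05 became 1692 to 3694 when 1 library was left out, 1746 in the 7 libraries alone and 1687 with Plastic day 4 replicates 1 and 2 summed. In settings added after seeing the data, the count without Plastic day 4 replicate 3 was 1694 with DESeq2, 509 with limma-voom and 893 with library size only, and with library size 281 of the 893 were higher at day 7 in place of 362 of 528. The replicate block gave 0 genes with all 27 libraries (2416 at an unadjusted p under 0.05) and 0 with the 6 libraries of shared numbers (1307). Whether replicate numbers pair the libraries was not settled. Same-numbered deviations from the group means correlated at 0.26, 0.76 and -0.28 for replicates 1, 3 and 4. The value of 0.76 was the highest of any pair across the days, but not every library correlated best with its own number. Deviations within a group are tied to each other through its mean, so these few values cannot decide it. The difference between the substrates' steps gave 0 to 1 genes when 1 library was left out and 0 otherwise; the midpoint comparison gave 0 throughout. The difference in effective number of genes ran from -725 to -334 when 1 library was left out. Log2 fold changes of the 4 IDs kept their sign in all 20 alternatives, at 1.62 to 2.28 for ENSRNOG00000049385, 1.26 to 1.58 for ENSRNOG00000026163, -2.57 to -2.22 for ENSRNOG00000048932 and -1.15 to -0.89 for ENSRNOG00000054437. Their adjusted p reached 0.285 to 0.347 at the highest, and passed in 5 or 6 of the alternatives. With every library kept, it passed in DESeq2 for all 4 IDs and in limma-voom for ENSRNOG00000049385 and ENSRNOG00000026163. All other passes were in settings that left out Plastic day 4 replicate 3, so they are not independent of each other. List alternatives were not run, since no ID had a symbol. At 17.5 to 23.1 M counts, genes under 1 CPM carried a median SE of 0.75. The causes of these changes were not tested.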
